A study of Arachis hypogaea with 3 samples.

Results

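Sieve element occlusion (SEO) and phloem proteins were examined in RNA sequencing of the peanut (Arachis hypogaea, cultivar Luhua 14) gynophore, the stalk that pushes the fertilized ovary into the soil. The 3 libraries, with no replicates, came from farm-grown plants: S1 (LD0) from aerial green or purple gynophores 3 to 5 cm long, S2 (LD3) from white gynophores after about 3 days in the soil, and S3 (LJ) from dark-grown gynophores carrying pods of 2 to 3 mm. Members were chosen by words in the database annotation of each sequence (sieve element, forisome, phloem protein, phloem-specific, or PP2 followed by a hyphen or by the letter A), which found 54 of the 83579 sequences in the expression table. The rule also named Unigene11826 and Unigene42923, which the study lists as sieve element-occluding protein 3. From mass spectrometry, the study lists Unigene11826 among proteins specific to S2 and Unigene42923 among those specific to S3. By its account, it kept those whose transcripts in these same libraries followed the protein. The levels of both are therefore given as a description only.

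Sieve elements are the conducting cells of the phloem, which carries sugar from leaves to growing organs. In legumes they hold forisomes, protein bodies that swell with calcium and plug the tube after injury. Forisomes and the related protein filaments of other plants are built from SEO proteins, whereas phloem protein 2 (PP2) is a lectin made in companion cells. Of the 54 members, 46 were annotated as SEO or forisome proteins. The letters PP2 matched 7 sequences annotated as a catalytic or regulatory subunit of protein phosphatase 2A, a general signalling enzyme with no special tie to phloem. The words phloem protein matched 1 DELLA protein, a gibberellin signalling repressor. No member was annotated as a PP2 lectin (0 of 54). The label is therefore borne out by the annotated function for the 46 SEO sequences, and only by an alternative name for the DELLA protein.

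The SEO sequences were 151 to 2310 bases long (median 410.5), and 39 of them were assembled unigenes and 7 were public peanut sequences, named here by their database identifiers. Their best hits were 21 different proteins, from soybean for 30 sequences and from Medicago truncatula for 9. A letter such as SEO-s is the name of the hit and not a name given to the peanut gene. Sequences with the same hit can be pieces of a single transcript or close copies, and only reads aligned to a single place were counted, so the level of any close copy is uncertain. None of the 54 identifiers matched the RefSeq gene table of the Tifrunner genome, and no chromosome position is given. The libraries held 6.67 to 7.15 times 1000000 counted reads each. RPKM is the number of reads per 1000 bases of a sequence and per 1000000 counted reads, and RPM leaves out the length. Where 3 values follow each other, they are those of S1, S2 and S3 in that order. All intervals are exact 95% intervals, Poisson for a level and Clopper-Pearson for a ratio, and they cover counting error only. With 1 library a stage, they compare libraries and not stages, and no p-value is given.

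Taken as a whole, SEO transcripts were most abundant in the aerial gynophore. The 46 sequences together had an RPM of 1245 (1219 to 1272) in the aerial library, which dropped to 903 (880 to 926) in S2 and to 450.1 (435 to 466) in S3. The S2 to S1 ratio of the sum was 0.725 (0.701 to 0.749) and the S3 to S2 ratio was 0.499 (0.478 to 0.521). Of the 45 SEO sequences with a read, 38 had their highest RPKM in S1 (84.4%), 7 in S2 (15.6%) and 0 in S3. Among all 81517 sequences with a read, the corresponding shares were 30.2%, 25.0% and 44.8%. In bulk tissue, fewer sieve elements and less SEO RNA per sieve element cannot be told apart.

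Counts past a limit of 2 times in RPKM + 1 fell mostly on the lower side. From S1 to S2, 4 of the 45 SEO sequences (8.89%) were past it upwards and 13 (28.9%) downwards, where 9.03% of all sequences with a read were higher and 9.19% lower. The upward share at this step was therefore close to that of all sequences. From S2 to S3 the counts were 0 higher and 24 lower (53.3%), against 18.6% and 11.4% of all sequences. From S1 to S3 they were 0 higher and 33 lower (73.3%), against 21.0% and 13.9%. Over all 53 members with a read, the counts were 6 higher and 13 lower at the first step, 2 and 26 at the second, and 1 and 33 over both. The median log2 ratio of RPKM + 1 over the 45 SEO sequences was -0.67 at soil entry (S1 to S2), -1.09 at pod swelling (S2 to S3) and -1.65 over both, beside 0, 0.18 and 0.16 over all sequences with a read. On this scale the change of weakly expressed sequences is understated.

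**Figure D1:**
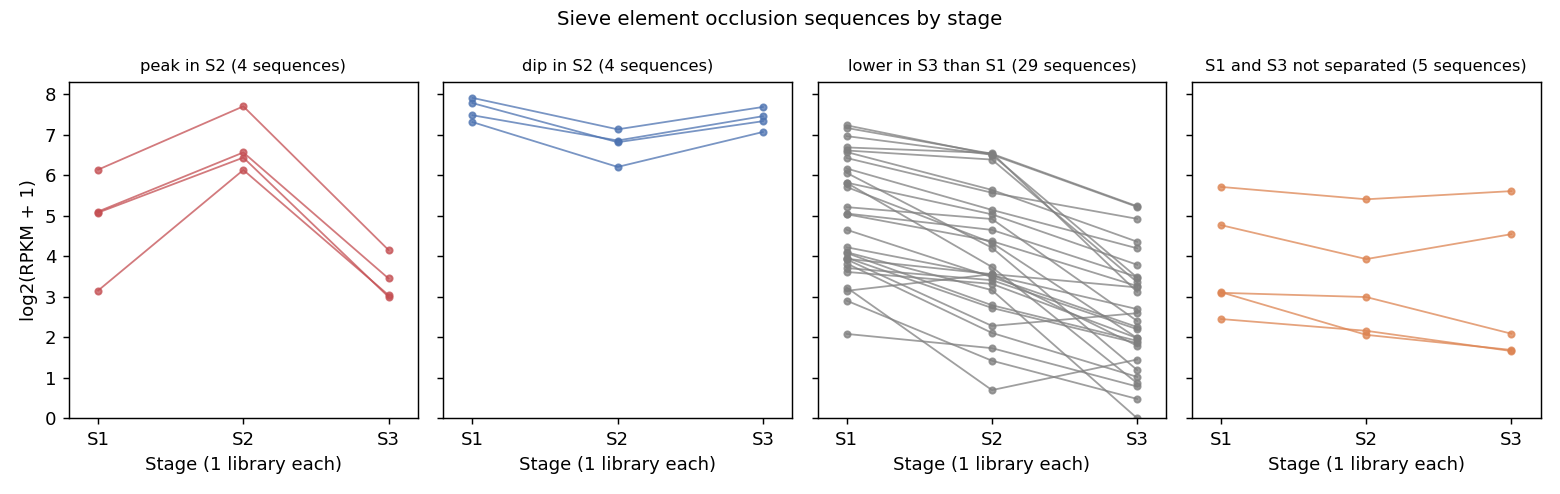
Level of the 42 SEO sequences with at least 10 reads in S1, S2 and S3, as log2(RPKM + 1), with 1 line per sequence and 1 panel per stage pattern. The 4 sequences that peak in S2 and the 4 that dip there stand beside 29 that are lower in S3 than in S1 and 5 others for which S1 and S3 are not separated by counting error.

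Not every sequence followed the fall of the sum. The 42 SEO sequences with at least 10 reads over the 3 libraries were sorted, after their values were seen, by whether the interval of each ratio excluded 1. They comprised 4 sequences that rose into S2 and fell again, 4 that fell into S2 and rose again, 29 others that were lower in S3 than in S1, 0 others that were higher, and 5 others with S1 and S3 not separated. Among all 68357 sequences with at least 10 reads the same sorting gave 5.18% with a peak in S2, 4.24% with a dip, 18.5% otherwise lower in S3 and 27.3% otherwise higher. An interval excludes 1 more easily at high counts, and the median RPKM in S1 was 32.6 for the 42 SEO sequences and 8.60 for all sequences with at least 10 reads.

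The 4 sequences that peaked in S2 were Unigene11826, Unigene59337, Unigene8726 and JK188461. Unigene11826 (677 bases, best hit SEO by forisomes 3 of Medicago, a forisome subunit) had 37, 313 and 35 reads. These make an RPKM of 7.91 (5.57 to 10.9), 69.3 (61.8 to 77.4) and 7.23 (5.04 to 10.1). The level in S2 stood far above both neighbours, which did not differ from each other beyond counting error. The S2 to S1 ratio was 8.76 (6.22 to 12.7), the S3 to S2 ratio 0.104 (0.0714 to 0.148) and the S3 to S1 ratio 0.914 (0.559 to 1.49). Its reads covered 98.1% of the bases in S2 and 92.3% in S1.

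Unigene59337 (374 bases, forisome of Canavalia gladiata) had an RPKM of 69.6, 208 and 16.8, from 180, 519 and 45 reads. It was the highest of all SEO sequences in S2. JK188461 (520 bases, SEO-a of apple) had an RPKM of 32.8, 85.9 and 6.99. For Unigene8726 (281 bases, SEO-l of soybean) the RPKM was 33.5, 93.8 and 9.96. The S2 to S1 ratio of these 3 lay close together, at 2.99 (2.52 to 3.56), 2.62 (2.11 to 3.26) and 2.80 (2.10 to 3.79), below that of Unigene11826. In contrast to Unigene11826, each of the 3 was also lower in S3 than in S1, with an S3 to S1 ratio of 0.242, 0.213 and 0.297. The S3 to S2 ratio of all 4 was between 0.0809 and 0.106. Together they made an RPM of 57.9, 196 and 17.6, and the other 42 SEO sequences made 1187, 707 and 432. Without the 4, the S2 to S1 ratio of the family sum was 0.595 (0.574 to 0.617).

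Among SEO sequences with at least 10 reads, the same 4 had the lowest match score per base to their best hit. The expectation value (E) of a database match falls as the match gets better and longer, so -log10 E was divided by sequence length. It was 1.92 to 4.81 per 100 bases for the 4 sequences with a peak in S2 and 6.12 to 16.2 (median 10.8) for the other 35 with at least 10 reads and an E above 0. The ranges did not overlap, but the groups were made after the values were seen. The measure was not compared between such groups over all sequences, so the gap cannot be called particular to SEO sequences. The 4 can include pieces of a single transcript. The 3 sequences with an E of 0, which are the longest and have the strongest matches, were left out. The 4 sequences with under 10 reads were also left out, and they spanned the gap, from 2.86 to 8.09. The lengths of the 4 (281 to 677 bases) were within those of the 35 (151 to 871 bases). The share of untranslated bases in each sequence lowers this measure too, and its part was not tested.

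**Figure D2:**
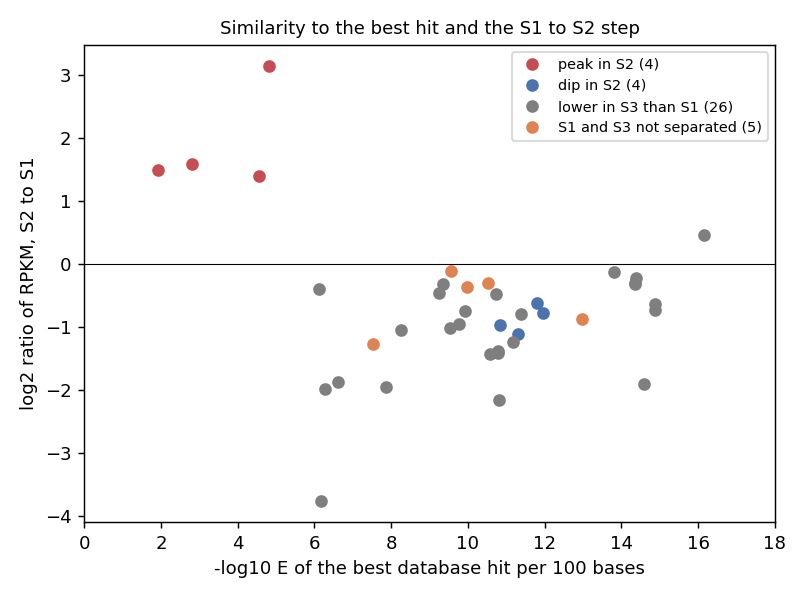
The log2 ratio of RPKM between S2 and S1 (vertical axis) against -log10 E of the best database hit per 100 bases (horizontal axis) for 39 SEO sequences with at least 10 reads and an E above 0, coloured by stage pattern. The 4 sequences with a peak in S2 lie at 4.81 or less on the horizontal axis and the other 35 plotted at 6.12 or more. The groups were made after the values were seen, and sequences with under 10 reads are not plotted.

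A second set dipped in S2 and came back in S3. Unigene20487 (151 bases, SEO-s of soybean) had an RPKM of 241, 140 and 206 and was the highest SEO sequence in both S1 and S3. Unigene37460 (206 bases, SEO-s) had an RPKM of 220, 112 and 161. GW972438 (513 bases, SEO-s) had an RPKM of 159, 73.0 and 134. In each of the 3 the S2 level was the lowest, and S3 stayed below S1 beyond counting error in Unigene37460 and GW972438. Unigene58763 (365 bases, SEO-g of soybean) had an RPKM of 178, 115 and 176, and its S3 to S1 ratio of 0.984 (0.862 to 1.12) left no difference detectable at this depth as deposited, but was 0.861 after the median of ratios and 0.871 after the upper quartile, with the interval below 1. The interval for Unigene20487 also lay below 1 after either rescaling. The S2 to S1 ratio of the 4 was 0.461 to 0.647, and the S3 to S2 ratio was 1.83 (1.57 to 2.14) for GW972438, 1.52 (1.31 to 1.77) for Unigene58763, 1.47 (1.18 to 1.83) for Unigene20487 and 1.44 (1.17 to 1.77) for Unigene37460. The rise into S3 depended on the scaling of the libraries: the interval reached 1 for Unigene37460 after rescaling by the median of ratios or the upper quartile, and for Unigene20487 after the upper quartile.

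Unigene42923 (231 bases, SEO-s of soybean) had 42, 22 and 37 reads, which make an RPKM of 26.3 (19.0 to 35.6), 14.3 (8.94 to 21.6) and 22.4 (15.8 to 30.9). The lowest level was in S2, and S1 and S3 overlapped. The study counts it among proteins of S3 that were high or specific in protein and RNA. Its RPKM was nevertheless not highest in S3. The S2 to S1 ratio was 0.542 (0.308 to 0.930), the S3 to S2 ratio 1.57 (0.902 to 2.79) and the S3 to S1 ratio 0.852 (0.532 to 1.36). These ratios lay within the range of the 3 SEO-s sequences with a dip, but at this depth the rise into S3 was not separated from 1. Unigene11826 and Unigene42923 thus went opposite ways into S2, although the study gives both the same protein name.

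The translated sequences in the study's protein tables were aligned with each other. In a local alignment (BLOSUM62), the translation of Unigene11826 (208 residues) shared 4 identical residues over 14 aligned positions with that of Unigene42923 (74 residues), and 11 over 53 with that of Unigene37460 (67 residues). Unigene42923 and Unigene37460 shared 4 over 13. These short alignments do not place the 3 on the same stretch of a protein. They therefore cannot show whether the 3 come from the same or different proteins. The translation of Unigene6154 (137 residues), with the same name, was 84.1% identical to that of Unigene11826 over 107 positions. Unigene6154 is absent from the expression table, so it is not a member and no level can be given.

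**Figure D3:**
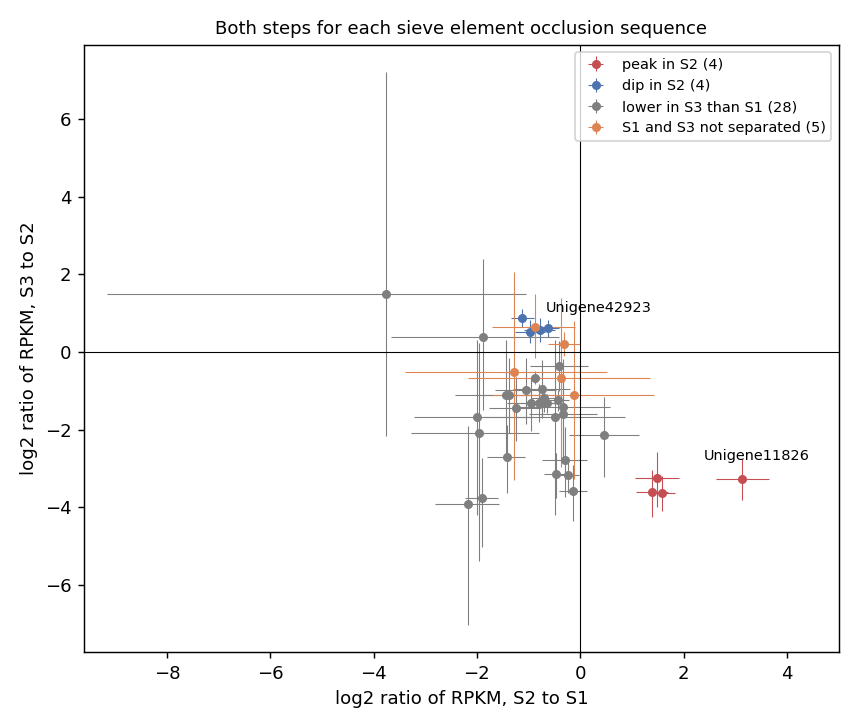
For 41 SEO sequences with at least 10 reads and a read in S3, the log2 ratio of RPKM at the first step, S1 to S2 (horizontal), and at the second, S2 to S3 (vertical), with 95% counting intervals as bars. Unigene11826 lies at the lower right (S2 to S1 ratio 8.76), the 4 sequences with a dip lie at the upper left, and most sequences lie at the lower left, where both ratios are below 1.

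The 29 sequences that were lower in S3 than in S1 held most of the SEO reads of S1 and S2, with an RPM of 918, 552 and 201. The longest SEO sequence, Unigene72479 (2310 bases, SEO by forisomes 1 of Medicago, a main forisome subunit), had the most reads of all, 1360, 718 and 486, and an RPKM of 85.2 (80.7 to 89.8), 46.6 (43.2 to 50.1) and 29.4 (26.9 to 32.2). It fell at both steps, by a ratio of 0.547 (0.499 to 0.599) and then 0.632 (0.562 to 0.710). Unigene16532 (2270 bases, SEO by forisome 1 of Vicia faba) had an RPKM of 32.3, 24.2 and 10.2. Unigene72244 (1623 bases, SEO-a of soybean) had an RPKM of 31.9, 19.8 and 8.62. In these long sequences, each covered over at least 93.6% of its bases in every library, the S3 to S1 ratio was 0.345, 0.316 and 0.270. Unigene69618 (801 bases, the same Vicia hit) had an RPKM of 14.6, 5.61 and 2.62 and fell further, with a ratio of 0.179 (0.0958 to 0.313).

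The 4 sequences with SEO-e of Medicago as their hit moved almost in step. Unigene59915 had an RPKM of 150.0, 90.3 and 36.3. Unigene66133 had an RPKM of 55.5, 31.9 and 12.9. The level was highest in S1 and lowest in S3 in each of the 4. Unigene33988 had an RPKM of 94.5, 48.9 and 19.6, and Unigene1762 one of 71.0, 34.4 and 17.4. The S3 to S1 ratio was 0.242, 0.231, 0.207 and 0.245. Unigene69077 (742 bases, SEO-m of soybean) was close to them in course, with an RPKM of 143, 91.7 and 36.8 and a ratio of 0.256 (0.218 to 0.301).

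Another course was a ratio of 0.724 to 0.908 at soil entry and a steep loss at pod swelling. Unigene68687 (708 bases, SEO-r of soybean) had an RPKM of 97.1, 83.0 and 9.29, with 475, 392 and 47 reads. Unigene57361 (345 bases, SEO-c of Medicago) had an RPKM of 102, 92.9 and 7.70. Unigene61482 (414 bases, SEO-s of soybean) had an RPKM of 124, 90.1 and 10.1. The S1 and S2 levels both stood well above S3. The S2 to S1 ratio was 0.855 (0.746 to 0.979), 0.908 (0.752 to 1.10) and 0.724 (0.614 to 0.854), and the S3 to S2 ratio was 0.112 (0.0809 to 0.152), 0.0829 (0.0489 to 0.133) and 0.112 (0.0743 to 0.165). For Unigene68687 the S2 to S1 interval reached 1 after either rescaling. Unigene13592 (424 bases, SEO-s) had an RPKM of 36.2, 29.3 and 4.29 and an S3 to S2 ratio of 0.146 (0.0747 to 0.264).

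Steep losses at both steps were found in other SEO-s sequences. Unigene11807 (871 bases) had 396, 102 and 8 reads and an RPKM of 65.8, 17.5 and 1.28. Unigene56948 (340 bases) had 130, 28 and 2 reads and an RPKM of 55.3, 12.3 and 0.823. Unigene68115 (664 bases) had an RPKM of 51.4, 19.2 and 2.95. The S3 to S1 ratio was 0.0195 (0.00837 to 0.0389), 0.0149 (0.00178 to 0.0548) and 0.0573 (0.0309 to 0.0981). The 10 sequences whose hit was SEO-s therefore ranged from an S3 to S1 ratio of 0.0149 to one of 0.855, and their sum was an RPM of 356, 174 and 153. GW987692, the remaining SEO-s sequence, had an RPKM of 14.3, 10.8 and 8.40, but its reads covered only 28.5% of it in S2 and S3.

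Sequences at lower levels mostly followed the family. Unigene68650 (SEO-p of soybean) had an RPKM of 24.2, 10.2 and 3.77, Unigene67740 (SEO-f) one of 17.7, 10.6 and 5.48, and GW988119 (SEO-l) one of 11.3, 8.99 and 2.95. All 3 were highest in S1 and lowest in S3. The SEO-j sequence Unigene12475 had an RPKM of 15.9, 5.93 and 2.77, and Unigene32412, with the same hit, had 21, 10 and 0 reads, which puts S1 at least 7.24-fold higher than S3 (S3 set to its floor of 3 reads), while the exact interval of that ratio starts at 5.39. Unigene17607 and Unigene16210, hits of a calcium-regulated forisome protein of pea, had 37, 9 and 3 reads and 32, 8 and 2 reads. Both were near their floor in S3. Unigene67516 (SEO-c of soybean) had 34, 45 and 11 reads, with a change at soil entry of 1.37 times (0.859 to 2.21) that was not separated from 1. A further SEO-c sequence, Unigene54471, had 26, 20 and 8 reads. Unigene12968 (SEO-e of soybean) had 13, 9 and 3 reads, Unigene34276 (SEO-p) 19, 5 and 7, and Unigene45172 (SEO-l) 14, 1 and 3. The last counts are too low to order S2 and S3.

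Among the sequences with neither a peak nor a dip, S1 and S3 were not separated for 4 besides Unigene42923. JK181980 (581 bases, SEO-c of Medicago) had an RPKM of 51.6, 41.5 and 47.9 and an S3 to S1 ratio of 0.929 (0.761 to 1.13), but its reads covered only 23.9% of the sequence in each library. After the median of ratios the upper limit of that interval fell below 1, and it did so for Unigene32859 after either rescaling. Unigene27675, Unigene48096 and Unigene32859 had 21, 18 and 17 reads in all, each most in S1. Of the other 4 SEO sequences, 3 had 1 to 9 reads (Unigene27150 with 4, 2 and 3, Unigene54866 with 4, 4 and 1, and GW982884 with 1 read in S2) and JK202567 had none, so their course was not detectable at this depth.

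Other gene lists were summed in the same way to place the family. The xylem and fibre wall list, which held 19 laccases (lignin-forming oxidases) and 6 xylem serine proteinases and none of its other words, had a summed RPM of 1194, 882 and 264. The S3 to S1 ratio of this sum was 0.221 (0.210 to 0.232) beside 0.361 (0.347 to 0.376) for SEO. By sequence, 3 of 25 were higher and 4 lower at soil entry, beside 9.03% and 9.19% of all sequences with a read. The median log2 ratio was 0.35 where that of SEO was -0.67. At pod swelling 0 were higher and 18 lower, beside 18.6% and 11.4%, with a median of -1.30. Histones and cyclins made 2673, 2999 and 1731, chlorophyll-binding, photosystem and Rubisco small subunit genes 3868, 215 and 373, and seed storage and oleosin genes 198, 333 and 189. The part of tissue make-up in the SEO values was not tested.

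Lists for sucrose transport, callose making and breakdown, and sucrose cleavage did not share one course. The 20 sucrose transporter sequences, which move sucrose across membranes, made an RPM of 262, 355 and 430.2, against the direction of SEO. The rise from S2 to S3 was smaller after rescaling. The sum was then 271, 376 and 389 (median of ratios) or 270, 383 and 391 (upper quartile). Of the 20, 6 were at least 2 times higher and 3 lower in S3 than in S1, with a median log2 ratio of 0.32, beside 21.0% higher, 13.9% lower and a median of 0.16 over all sequences with a read, against which the counts of the next lists are also to be read. The 13 callose synthases, makers of the glucan that seals sieve pores, made 198, 128 and 141, with 2 higher, 4 lower and a median of -0.55 from S1 to S3. Their sum did not rise into S3 after rescaling. It was 205, 136 and 128 (median of ratios) or 204, 138 and 128 (upper quartile). Beta-1,3-glucanases, which break callose down but also serve in defence, made 1082, 1198 and 565. From S1 to S3, 2 of 41 were higher and 10 lower, with a median of -0.54. Many of them rose at soil entry, with 11 higher and 1 lower, beside 9.03% and 9.19% of all sequences. At pod swelling 1 was higher and 16 lower, beside 18.6% and 11.4%. Sucrose synthases, which cleave sucrose in sink tissue, made 2623, 2906 and 1933. From S1 to S3, 2 of 21 were higher and 9 lower, with a median of -0.32.

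**Figure D4:**
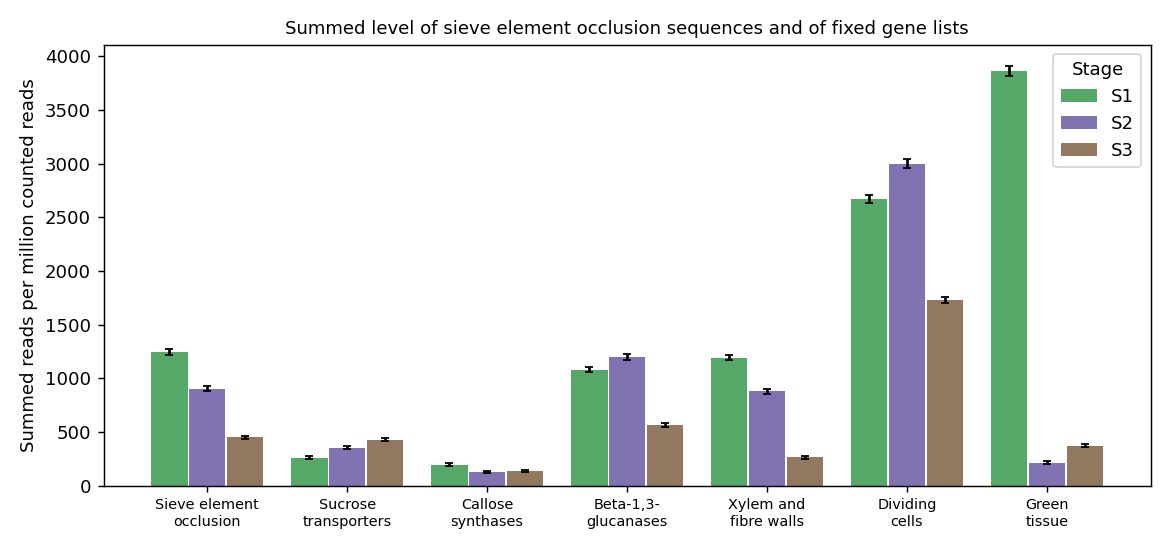
Summed RPM (reads per 1000000 counted reads) of the 46 SEO sequences and of 6 gene lists in S1, S2 and S3, with exact 95% Poisson intervals as error bars. The SEO sum falls from 1245 to 450.1 and the xylem and fibre wall list from 1194 to 264, while sucrose transporters rise from 262 to 430.2.

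The remaining members were annotated as phosphatase subunits or as a DELLA protein, whose alternative name holds the words phloem protein. EZ748149 (649 bases), whose hit is DELLA protein GAIP-B of pumpkin, had 323, 218 and 514 reads and an S3 to S1 ratio of 1.54 (1.34 to 1.77). The phosphatase 2A catalytic subunit Unigene69522 (788 bases) had an RPKM of 22.8, 31.6 and 71.9 and an S3 to S1 ratio of 3.16 (2.58 to 3.89), on reads that covered at most 17.5% of it. The regulatory B subunit EZ745027 (850 bases) had an RPKM of 37.5, 31.6 and 31.3, with S1 and S3 not separated as deposited. After rescaling its S3 to S1 ratio was 0.731 (median of ratios) or 0.739 (upper quartile), with the interval below 1. JK150017 had 14 reads in S2 alone, on 9.42% of its bases, and the other 4 phosphatase sequences had 1 to 4 reads each.

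The rule passed over 4 sequences whose hit is a phloem specific protein of pea, spelled without a hyphen. They are named because they lie just outside the rule. EZ753703 (488 bases) had 22, 80 and 59 reads and an RPKM of 6.52, 24.6 and 16.9. Its S2 to S1 ratio was 3.77 (2.33 to 6.34) and its S3 to S1 ratio 2.59 (1.56 to 4.44). JK205660 had 0, 3 and 20 reads, JK184211 had 0, 2 and 8, and JK204755 had 0, 0 and 8. In S3 the reads of these 3 covered only 30.3%, 10.2% and 14.8% of their bases. All 4 sequences had more reads in S3 than in S1. Among all sequences with a read, 44.8% had their highest RPKM in S3.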

How the data were processed

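RNA of S1, S2 and S3 gynophores was sequenced with 1 library each, after capture of poly(A) RNA on oligo(dT) beads. The labels give the tip-most 1 cm for protein work and do not say which length gave the RNA. The deposited read counts are reads that the authors aligned to a single place of a single sequence. The authors' RPKM values are these counts divided by length and library total, and the authors also deposited the percent of bases that reads cover. The sources used here do not name an aligner. A dash in the table was read as no read.

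Ratios were computed on RPKM and medians on log2(RPKM + 1) with a pseudocount of 1. No test across samples was made. The members, gene lists and limits were chosen with earlier results of these data known, and the stage patterns after the values were seen. Every member was reported, the SEO sequences with at least 10 reads by RPKM or reads. Alternatives were rescaling by the median of ratios or the upper quartile, a pseudocount of 0.1, at least 10 reads, a limit of 1.5 times, unigenes only, no phosphatases and, added after seeing the data, coverage of at least 50%. Values were computed with scipy 1.17.1, numpy 2.4.6 and pandas 2.3.3 under Python 3.11.15 and drawn with matplotlib 3.10.9.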

Additional observations from a re-analysis of the deposited data

How the results depend on the processing

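The direction of each median of the SEO sequences held under every rescaling, the pseudocount of 0.1, the filters on reads and coverage, and unigenes only. The S2 to S3 median was -1.32 with the pseudocount of 0.1. Numbers of members past the limit changed by more than 1.5 times as follows. From S1 to S2, 3 were higher among unigenes only and 26 were lower at a limit of 1.5 times. From S2 to S3, the number higher was 0 under either rescaling, 6 with the pseudocount of 0.1 or the limit of 1.5 times, and 1 among unigenes only, without phosphatases, or with coverage of at least 50%. From S1 to S3, the number higher was 3 with the pseudocount of 0.1, 2 at 1.5 times, and 0 without phosphatases or with coverage of at least 50%. Rescaling multiplied every S3 to S2 ratio by 0.853 (median of ratios) or 0.843 (upper quartile). The summed RPM of SEO sequences in S1, S2 and S3 was 1286, 956 and 407 after the median of ratios, 1279, 974 and 409 after the upper quartile, and 1100, 783 and 343 for unigenes only. The phosphatase sum was 49.9, 54.4 and 83.6 as deposited and 17.9, 24.9 and 56.6 for unigenes only, and in S3 it was 75.6 and 76.1 after the rescalings. Sequences with a dip in S2 numbered 2 after the upper quartile, and those with S1 and S3 not separated numbered 3 after the median of ratios. Every SEO sequence had its highest RPKM in the same stage under both rescalings, and the ratios of Unigene11826 and Unigene42923 stayed on the same side of 1. The filter on coverage and the rescaled patterns were chosen after seeing the data. No paired analysis was possible because there was 1 library a stage, and no library could be left out. No PP2 lectin sequence was found, so the planned median over such sequences was not run.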
